A study of Mus musculus with 3 samples.

Results

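Ribosomal protein genes, which encode the protein components of the cytoplasmic ribosome, were followed across stages and cell lineages of developing mouse back skin. The members were all rows of the deposited expression table whose symbol was Rps or Rpl with a number and at most one of the letters a, x, y or l, together with Rpsa, Rplp0, Rplp1 and Rplp2. This gave 80 of 19165 genes, of which 31 encode proteins of the small subunit and 49 encode proteins of the large subunit and its P stalk. The rule used no measured value. Single cells from back skin of male C57BL/6 mice had been sequenced from the 3′ end of their transcripts in droplets, where a unique molecular identifier (UMI) counts each captured transcript once. The embryonic stages were E13.5 (hair follicle induction) and E16.5 (organogenesis), and the last stage was the day of birth (P0, cytodifferentiation). Skin was digested with trypsin at both embryonic stages and with collagenase IV at P0, so that the digestion and the last stage cannot be told apart. Each stage was 1 library of skin pooled over several animals, and the libraries held 5962 (E13.5), 5208 (E16.5) and 5065 cells (P0). The table thus held 16235 cells, whereas the design text of the series gives 15086. No difference between stages or cell groups therefore has a replicate check, no test was run, and all intervals are 95% intervals that cover counting error only.

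Eukaryotic ribosomes are built from ribosomal RNA and one copy of most ribosomal proteins, so the genes for these proteins are transcribed at similar and high levels in dividing and secreting cells. Their mRNAs mostly begin with a run of pyrimidines, the 5′ terminal oligopyrimidine (TOP) tract, through which translation of the whole set is coupled to mTOR signalling. Large and small subunits are assembled in the nucleolus and nucleus by a separate set of biogenesis factors. In embryonic skin the basal epidermis and the hair matrix are known as fast-growing epithelia, whereas dermal fibroblasts divide less around birth and secrete extracellular matrix.

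The libraries differed in depth, with medians of 7066.5 (E13.5), 11021 (E16.5) and 6797 UMIs per cell (P0), and every cell was therefore thinned to 3500 UMIs before comparison. In total 166173741 UMIs were recovered from 16235 cells, and 32 to 44 cell barcodes were shared between any 2 libraries. Cells were clustered within each library without the ribosomal protein genes, and clusters were named from marker lists. The dermal-like, epithelial-like, endothelial-like, Schwann-like, melanocyte-like and immune-like classes were found at all 3 stages, and a pericyte-like class at E16.5 and P0. Muscle-like, cartilage or tendon-like, erythroid-like and neural-like cells, which are not skin lineages proper, formed classes of at least 50 cells only at E13.5. Each dermal-like and epithelial-like class had its 10 markers above 0, and all of them were higher than in the rest of the library except for 1 dermal marker at E13.5. Elsewhere 1 of 6 melanocyte markers and 3 of 8 matrix or placode markers were at 0 at E13.5, and 1 of 8 immune markers at P0. Between 11.8% and 13.0% of the cells of a library were left unnamed, among them 229 of 512 epithelial cells at E13.5 that sat in sub-clusters led by markers of other classes. Clusters of 528 cells at E16.5 and 216 at P0 that matched the dermal markers best were left unnamed too. Their leading genes held a marker of another class (neural at E16.5, cartilage or tendon at P0) and no dermal one. The dermal-like values leave these cells out. Most clusters kept as dermal-like had no dermal marker among their 10 leading genes either. A kept dermal-like cluster of 612 cells at E13.5 had Ppbp and Itga2b among its leading genes. Its median of 4649 UMIs per cell was the lowest of the dermal-like clusters at that stage. Sub-clusters of 255 dermal-like cells at E13.5 and 155 at P0 whose first 4 leading genes were globins remained in the dermal-like class.

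The windows around the transcription start are shown first, because the TOP tract is the sequence feature described for most of the family. In addition, 2 of the members printed are close copies whose values differed from those of their counterparts. RefSeq promoter windows of 300 bases on GRCm38.p6 were matched for 59 of the 80 members. A run of at least 8 bases made only of C and T, reaching within 5 bases of the annotated start, was present for 23 of these 59 genes (39.0%), against 12.2% of 13480 genes of the table with a window. The run was found for 3 of 10 translation factors and other TOP mRNAs (30%), 10.3% of 68 mitochondrial ribosomal protein genes and 3.70% of 27 ribosome biogenesis genes. The heptamer CCGGAAG, which holds the GGAA core that ETS factors recognise, was found on either strand of the window for 25 of the 59 members (42.4%), against 15.9% of genes of the table, and it was similarly common for mitochondrial ribosomal protein genes (36.8%) and biogenesis genes (37.0%). These are matches of letters in the windows and were not tested as sites. The following 60-base stretches hold 40 bases before and 20 bases from the annotated start. Capitals mark the longest pyrimidine run that reaches within 5 bases of this start.
Rpl39 (chrX:37085203-37085262, minus strand): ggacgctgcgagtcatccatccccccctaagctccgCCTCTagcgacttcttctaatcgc
Rpl39l (chr16:10170188-10170247, plus strand): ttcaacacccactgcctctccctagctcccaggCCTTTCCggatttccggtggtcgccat
Rps27 (chr3:90213629-90213688, minus strand): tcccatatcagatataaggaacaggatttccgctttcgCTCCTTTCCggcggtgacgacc
Rps27l (chr9:66946046-66946105, plus strand): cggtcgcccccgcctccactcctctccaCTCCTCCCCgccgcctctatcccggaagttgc
Rpl35 (chr2:39005112-39005171, minus strand): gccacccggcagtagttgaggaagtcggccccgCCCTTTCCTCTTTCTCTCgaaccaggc
Rps26 (chr10:128626487-128626546, minus strand): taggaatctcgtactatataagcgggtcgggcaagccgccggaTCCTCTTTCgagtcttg
The run was 18 bases long for Rpl35 and 9 for Rps26, Rps27 and Rps27l. It was 7 bases for Rpl39l and 5 for Rpl39. The runs marked for Rpl39l and Rps27l lay wholly before the annotated start. Another Rps27l window, not printed, had a run of 4 bases.

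Ribosomal protein transcripts made up a large and growing part of the transcriptome. They took 19.9% of all UMIs in the E13.5 library (interval 19.90% to 19.94%), 25.02% in the E16.5 library and 27.3% in the P0 library (27.2% to 27.3%). Over single cells the share had an SD of 4.03, 5.55 and 5.86 percentage points at the 3 stages. The share at E16.5 was 5.10 points above that at E13.5, and the share at P0 was 2.25 points above that at E16.5. Both steps kept their direction in all UMIs without thinning, where the shares were 20.5%, 25.9% and 29.2%. Weighting the 6 classes present at every stage equally gave 20.4%, 24.8% and 25.1%. The second step was small under this weighting, where 66 immune-like cells at P0 count as much as 2468 dermal-like cells. It does not hold the mixture at the class sizes of a library, and the part of composition in the second step was not tested. The small subunit held 42.7%, 41.997% and 41.7% of the member UMIs at the 3 stages.

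A list of 16 dissociation response genes moved in the same direction over the stages, with summed levels in CPM (UMIs per 1000000 UMIs) of 1585 (E13.5), 2861 (E16.5) and 6058 (P0). Its part in the stage differences was not tested. Within a library, the share of ribosomal protein UMIs correlated with the number of UMIs of a cell across cells (Spearman 0.17 over 5962 E13.5 cells, 0.23 over 5207 E16.5 cells and 0.39 over 5065 P0 cells), a description of cells that share a library. Mitochondrially encoded transcripts took 3.05%, 2.67% and 2.997% of UMIs.

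**Figure D1:**
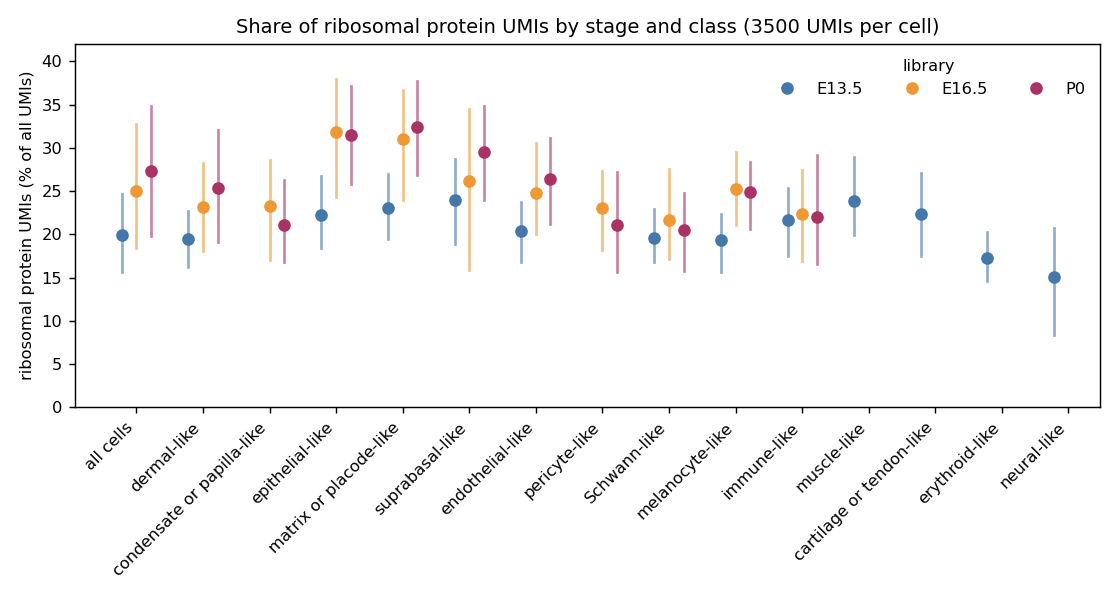
The vertical axis gives ribosomal protein UMIs in percent of all UMIs at 3500 UMIs per cell, and the horizontal axis gives all cells and the cell classes. Points are shares over the cells of a class in a library (blue E13.5, orange E16.5, red P0), and lines run from the 10th to the 90th percentile over cells. Epithelial-like cells at E16.5 and P0 sit at 31.8% and 31.5%, and immune-like and Schwann-like cells lie between 19.6% and 22.4% at all stages.

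The share was higher at E16.5 than at E13.5 in each of the 6 classes that could be followed, by 9.57 points in epithelial-like cells and by 0.713 points in immune-like cells, where the sign turned to -0.200 among cells with at least 2500 genes. Epithelial-like cells had 22.2% (n = 283 cells), 31.8% (n = 876) and 31.5% (n = 1233) at the 3 stages. Dermal-like cells had 19.4% (n = 1935), 23.2% (n = 2756) and 25.4% (n = 2468). Endothelial-like cells had 20.3%, 24.8% and 26.4%, and melanocyte-like cells 19.4%, 25.3% and 24.9%. Globin genes took 3.45%, 0.371% and 0.0781% of UMIs in the former at the 3 stages, and 3.91%, 0.843% and 0.260% in the latter. The part of globin in these differences was not tested. Schwann-like cells had 19.6%, 21.6% and 20.5%, and immune-like cells 21.6%, 22.4% and 22.1%. The Schwann-like difference between the first 2 stages ran from 1.54 to 3.23 points over the alternatives and the immune-like one from -0.200 to 2.24. The epithelial-like one ran from 7.11 to 10.2 points and the dermal-like one from 2.44 to 4.12. From E16.5 to P0 the share was higher by 2.202 points in dermal-like cells and lower by 1.95 points in pericyte-like cells (23.0% and 21.1%). The small differences of epithelial-like, immune-like and melanocyte-like cells between E16.5 and P0 changed sign with the processing and give no direction, and that of endothelial-like cells (1.59 points) was -0.532 at a coarser clustering.

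Within the skin lineages the share also differed between subsets. Matrix or placode-like cells of the epithelium had 23.0%, 30.99% and 32.4% at the 3 stages. Suprabasal-like cells, named from markers of the differentiating layers, had 23.9%, 26.1% and 29.5%, against 22.2%, 31.8% and 31.5% in all epithelial-like cells. At E16.5 the 10 leading genes of suprabasal-like cells held Krt4, Krt7 and Krt19 beside Krt1 and Krt10. At P0 they held Krt1 and Krt10 without Krt4, Krt7 and Krt19, so the 2 stages may hold unlike cells. The dissociation response level of suprabasal-like cells at P0 was 10569 CPM against 4644 CPM in all epithelial-like cells, and its part was not tested. Condensate or papilla-like cells, the dermal signalling centre of the follicle, had 23.3% at E16.5, close to the 23.2% of all dermal-like cells, and 21.1% at P0, below the 25.4% of all dermal-like cells. Their dissociation response level at P0 was 9614 CPM against 6686 CPM in all dermal-like cells, and its part in this difference was not tested. Single dermal-like clusters ranged from 17.6% to 20.8% at E13.5, from 20.4% to 25.03% at E16.5 and from 21.2% to 29.2% at P0. At E13.5 the highest class was muscle-like, with 23.8%, and the lowest was neural-like, with 15.1%. The 3 neural-like clusters of at least 50 cells held 18.4%, 10.8% and 8.98%, and the last 2 had the lowest shares of all named clusters at this stage. Erythroid-like cells had 17.3%, with 11.8% of their UMIs from globin genes.

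Cells scored as G2/M had a lower share than cells scored as G1 in both lineages at every stage. In dermal-like cells the G1 and G2/M shares were 20.1% and 18.2% at E13.5, 24.2% and 21.1% at E16.5, and 26.0% and 21.8% at P0. In epithelial-like cells they were 22.9% and 21.6%, 31.2% and 30.7%, and 32.2% and 29.9%. Cells scored as S had 19.97%, 24.0% and 26.3% in dermal-like cells, and 22.6%, 32.7% and 32.6% in epithelial-like cells. The S shares were near the G1 shares or above them, so a lower share was not common to all cycling cells. The fraction of dermal-like cells scored as G1 went from 22.2% at E13.5 to 36.9% at E16.5 and 73.9% at P0. Among G1 cells alone the dermal share was still higher at each later stage.

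Member by member, the step from E13.5 to E16.5 was shared by nearly the whole family and small for each gene. With 10 added to each CPM, all 79 members that reached 50 UMIs had a log2 difference above 0 in all cells, with a median of 0.31, while the median of all 13264 genes tested was -0.06. A log2 difference of at least 0.5 in size was reached by 5 members upward and 0 downward, where 6.46% of all genes were higher by this fold and 8.50% lower, so the share of members called was near the background. In dermal-like cells 6 of 79 members were higher by this fold (7.32% of all genes) and 0 lower (10.6%), with a median of 0.23. In epithelial-like cells 37 of 78 members were higher by this fold against 10.7% of 7487 genes tested, and 0 were lower (22.4% of genes), with a median of 0.49. Of the 80 members only Rpl3l, the muscle-type copy of Rpl3, did not reach 50 UMIs in all cells, with 1 thinned UMI at E13.5 and 0 at the other stages.

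The other classes gave smaller or more mixed counts for the same step. Endothelial-like cells had 4 members higher (13.8% of genes) and 0 lower (13.2%) of 78. Schwann-like cells had 2 higher (11.8%) and 0 lower (13.9%) of 77. Immune-like cells had 0 higher (15.7%) and 1 lower (18.0%) of 77, and 34 of their members were below 0. Melanocyte-like cells had 20 higher (14.7%) and 0 lower (21.7%) of 77, from 76 and 54 cells. In 40 of 77 members the difference was above 0 in all 6 classes, which share their libraries and are not independent. No such count over all genes is given here, so the members cannot be set against a background.

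The step from E16.5 to P0 split the family. In all cells 56 of 79 members were above 0 and 23 below, with 1 past the fold upward (6.79% of genes) and 0 downward (12.6%). Dermal-like cells had 1 higher (7.57%) and 1 lower (18.6%) of 79, and epithelial-like cells 1 higher (11.6%) and 1 lower (14.8%) of 78. Endothelial-like cells had 2 higher (12.8%) and 0 lower (21.3%). Pericyte-like cells had 1 higher (14.6%) and 3 lower (19.7%), and Schwann-like cells 0 higher (17.3%) and 4 lower (20.1%). Immune-like cells had 0 higher (10.9%) and 1 lower (24.4%), and melanocyte-like cells 0 higher (17.5%) and 2 lower (15.3%). In every class the share of members past the fold was below that of all genes tested. The upward calls in all, dermal-like, epithelial-like and pericyte-like cells were of Rpl6l, whose uncertain reads are taken up below.

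**Figure D2:**
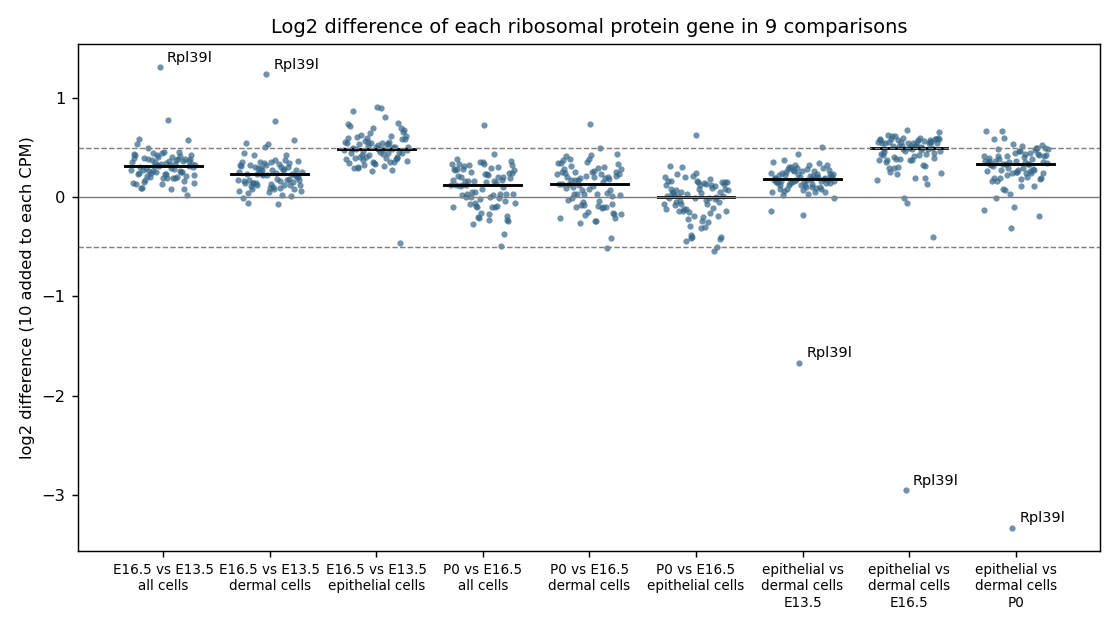
Each point is the log2 difference of a ribosomal protein gene (vertical axis, 10 added to each CPM) in 1 of 9 comparisons (horizontal axis), black bars are medians over the members, and dashed lines mark 0.5 and -0.5. Members form a narrow band above 0 at E16.5 against E13.5 and in epithelial-like against dermal-like cells, and Rpl39l lies far below the band in the 3 lineage comparisons.

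Among the 5 members with most UMIs were Rpl41, Rpl13, Rps19 and Rplp0. A UMI of this assay counts a transcript once whatever its length, so levels of genes can be set side by side without a correction for length, apart from differences in capture at the 3′ end. Rpl41, a very short basic peptide of the large subunit, had 6941, 9489.9 and 8483 CPM at E13.5, E16.5 and P0. Rpl13 had 5404, 7323 and 8965 CPM, and Rps19, which is mutated in Diamond-Blackfan anaemia, had 4851, 6681 and 7735 CPM. Rpl13 and Rps19 were thus higher at each later stage, whereas Rpl41 was highest at E16.5.

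Rplp0, the scaffold of the ribosomal P stalk that binds elongation factors, had one of the largest differences of the family at E16.5. Its levels were 3799, 6552 and 7658 CPM at the 3 stages, which is a log2 difference of 0.78 for the first step (interval 0.77 to 0.80). The difference at E16.5 was 0.77 in dermal-like cells, 0.90 in epithelial-like and in melanocyte-like cells, 0.55 in Schwann-like cells, 0.48 in endothelial-like cells and 0.25 in immune-like cells. Rplp0 thereby gained on the rest of the pool, by 0.46 on the log2 scale in all cells.

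At the low end of the first step were Rps26 and Rps27l, which had log2 differences of 0.08 and 0.03 in all cells. In dermal-like cells Rpl22 (-0.06) and Rpl14 (-0.0024) were among the 3 lowest and Rps28 (0.58) was among the 3 highest. In epithelial-like cells the lowest were Rps27l (-0.46), Rpl38 (0.27) and Rps2 (0.28), and Rpl6l (0.91) was highest beside Rplp0. In endothelial-like cells Rpl15 (0.67), Rpl27 (0.52) and Rps27 (0.52) were highest and Rps26 (-0.14) was lowest. Rps26 was lowest in immune-like cells too, with -0.51 and levels of 2978 CPM at E13.5 and 2085 CPM at E16.5, and it was the member counted as lower there.

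Relative to the pool of all member UMIs, which removes the change of the whole family, 10 members were above 0 at E16.5 in all 6 classes and 20 were below 0 in all 6. The former included Rpl15, Rpl28, Rpl35, Rpl36, Rpl37a, Rpl7a, Rplp0, Rps18 and Rps28. At P0 against E16.5, 22 members were above 0 in all 7 classes and 20 below 0 in all 7. Rpl28, Rpl35, Rpl37a and Rps28 had gained relative to the pool at E16.5 and were lower relative to it at P0 in every class, whereas Rpl15 and Rps18 were higher in both steps. Rps26 and Rps27a were lower in both steps. The classes of a stage came from 1 library, so a property of the library that acts on single transcripts would appear in every class, and this was not tested. Counts over all genes are not given beside those of the members, which therefore lack a background.

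Rps21 and Rps26 stood at the lower end of the second step. Rps21 had 1077, 1284 and 913 CPM at the 3 stages, with a log2 difference of -0.49 between the last 2 stages. Rps26 had 2938, 3107 and 2397 CPM, with a difference of -0.37. Over the 7 classes the second-step difference ran from -0.75 to -0.32 for Rps21 and from -0.73 to -0.37 for Rps26, so both were lower in every class. Rpl35 ran from -0.45 to -0.26 over the same classes. At the upper end Rps14, a small subunit protein next to the mRNA exit path, had 3798, 4622 and 6251 CPM, with differences between 0.14 and 0.53 over the classes. Rpl15 had 0.39 in all cells, and Rpl3 had 0.31 in epithelial-like cells.

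Members with shorter transcripts tended to be lower in the second step. The 39 members with a median annotated transcript under 771 bases had a median log2 difference of 0.01 in all cells, and the 39 longer ones had 0.18. Across members the Spearman correlation with length was 0.34 in all cells (n = 78), 0.27 in dermal-like cells (n = 78) and 0.39 in epithelial-like cells (n = 77). Across other genes of the same length span with at least 2000 UMIs it was -0.13 in all cells (n = 2246) and -0.06 in dermal-like cells (n = 1135). In epithelial-like cells it was 0.19 across 334 such genes, the same direction as across the members. Without the minimum of 2000 UMIs it was -0.24 across 7389 other genes in epithelial-like cells, the opposite direction. In the first step the correlation across members was -0.18 in all cells, -0.31 in dermal-like cells and 0.09 in epithelial-like cells. These are correlations across genes, which are not independent replicates.

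Between lineages, the family as a whole was higher in epithelial-like than in dermal-like cells of the same library. At E13.5 the 2 shares were 22.2% and 19.4%, at E16.5 31.8% and 23.2%, and at P0 31.5% and 25.4%, which are differences of 2.78, 8.59 and 6.13 points. At E13.5 75 of 79 members were above 0, with 1 higher by the fold (11.2% of genes) and 1 lower (18.8%). At E16.5 38 of 79 members were higher (12.2% of 10540 genes) and 1 lower (22.1%), and the median was 0.50 while all genes had a median of -0.08. At P0 8 members were higher (20.0% of genes) and 1 lower (19.8%), with a median of 0.34. The count at E16.5 rests on members just past the threshold, since the median lies at it, and 63 members were higher when levels were scaled to the UMIs of other genes. Both lineages of a library were digested and sequenced together.

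Proteins of both subunits led the epithelial side. At E16.5 the highest were Rpl4 (4014 CPM in epithelial-like and 2502 CPM in dermal-like cells, log2 difference 0.68), Rps7 (0.66) and Rpl22 (0.63). At P0 Rpl3, which lies near the peptidyl transferase centre, had 5185 and 3244 CPM, with a difference of 0.67. Rpl12, a protein at the base of the P stalk, had 1893 and 1183 CPM and the same difference, and Rpl32 had 0.60. At E13.5 Rps24 had 0.50, Rpl39 had 0.44 and Rpl26 had 0.38. The members below the dermal level in epithelial-like cells numbered 4, 4 and 6 at the 3 stages. Beside Rpl39l they included Rps27l at E16.5 (-0.40) and P0 (-0.19), Rpl41 at E16.5 (-0.06), Rpl38 at P0 (-0.31) and Rpl10 at E13.5 (-0.13).

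Rpl39l was the member with the widest differences between classes. It lies at chr16:10170226-10174911 on the plus strand (GENCODE vM21, GRCm38) and is the autosomal copy of the X-linked Rpl39 (chrX:37082520-37085402, minus strand), known for its expression in male germ cells. In dermal-like cells Rpl39l had 37.8 CPM in the E13.5 library (interval 33.3 to 42.7), 103 CPM in the E16.5 library (96.7 to 109.7) and 121 CPM in the P0 library (114 to 129). In epithelial-like cells it had 5.05, 4.57 and 3.01 CPM, from 5, 14 and 13 thinned UMIs. The dermal and epithelial intervals did not overlap at any stage. The log2 difference of epithelial-like against dermal-like cells was -1.67, -2.96 and -3.33 at the 3 stages. It was below 0 under every alternative run, but its size depended on the processing: with 1 added to each CPM in place of 10 it was -2.68, -4.22 and -4.93, and with the other class namings it came as near to 0 as -1.17, -2.72 and -2.86. Within dermal-like cells it was 1.24 for E16.5 against E13.5 (interval 1.08 to 1.40), the highest of the family.

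Beside the dermal-like cells, Rpl39l was higher in pericyte-like than in epithelial-like cells at E16.5 and P0. The same held for condensate or papilla-like cells, which are a subset of the dermal-like class. Condensate or papilla-like cells had 123 (E16.5) and 114 CPM (P0) of Rpl39l, and pericyte-like cells had 44.7 and 65.2 CPM. Endothelial-like cells stayed between 7.39 and 10.7 CPM, and Schwann-like cells between 2.62 and 11.7 CPM. Immune-like cells had 14.95 CPM at E13.5, 10.99 at E16.5 and 0 of 231000 thinned UMIs at P0, with an upper bound of 15.97 CPM. At E13.5 muscle-like cells had 12.6 CPM and cartilage or tendon-like cells 14.01 CPM, both below the dermal-like cells, while erythroid-like cells had 33.3 CPM (25.03 to 43.5). A UMI of Rpl39l was seen at matched depth in 11.5%, 28.1% and 30.9% of dermal-like cells, and in 1.77%, 1.598% and 1.05% of epithelial-like cells. Endothelial-like cells had 2.59%, 3.42% and 3.36%. The lower shares are not read as expression, since free RNA in droplets was not measured.

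Rpl39 itself, a small protein of the exit tunnel, had the opposite order of CPM in the 2 lineages, like most of the family. Its levels were 1925, 2414 and 2133 CPM in dermal-like cells, and 2609.8, 3349 and 2528 CPM in epithelial-like cells. Of 79 members, 75, 75 and 73 were above the dermal level in epithelial-like cells at the 3 stages, so this order is not particular to Rpl39. The longest run shared by annotated transcripts of Rpl39l and Rpl39 was 38 bases, and in the last 200 bases of Rpl39l it was 10 bases, so reads at the 3′ end distinguish the copies. In dermal-like cells at P0 Rpl39l was 0.0477% of the member UMIs and Rpl39 0.840%.

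**Figure D3:**
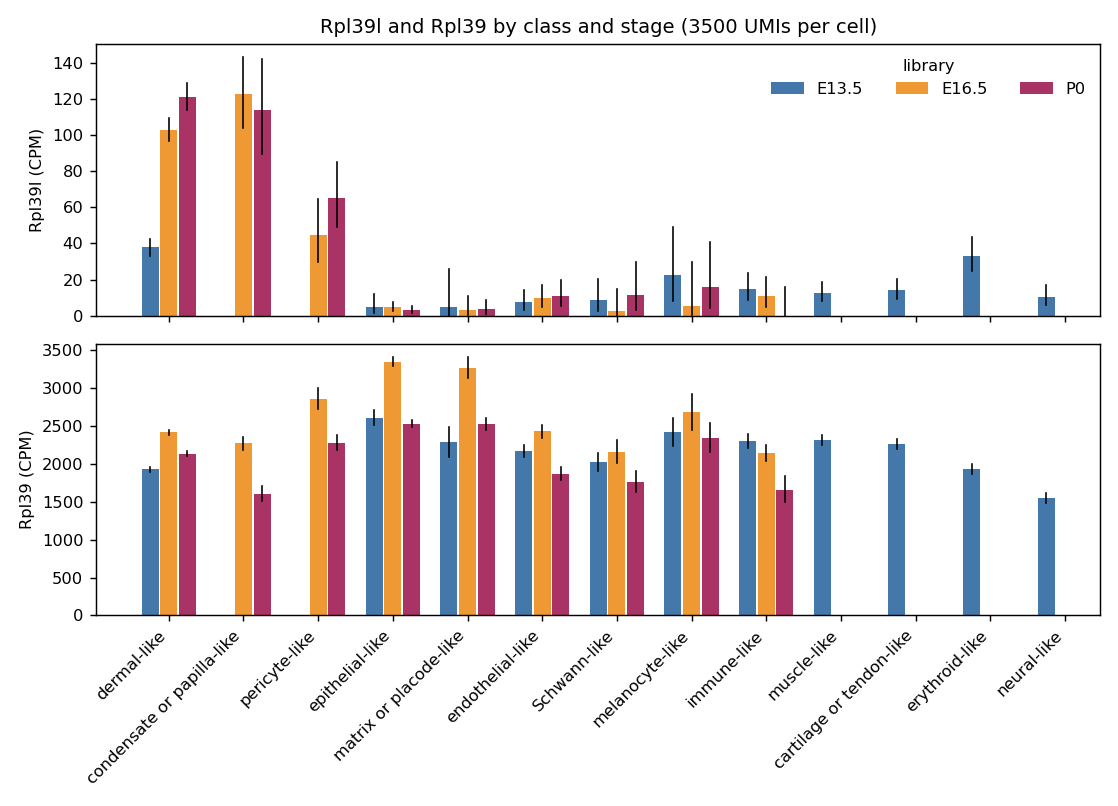
Bars give the level (CPM at 3500 UMIs per cell, vertical axes) of Rpl39l (top) and Rpl39 (bottom) by class (horizontal axis) and library (colours), with black lines for the Poisson interval. Rpl39l reaches 121 CPM in dermal-like cells at P0 and stays at or under 5.05 CPM in epithelial-like cells, where Rpl39 is higher than in dermal-like cells at every stage.

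Rps27l, a copy of Rps27 that p53 is known to induce, was lower in epithelial-like cells at E16.5 than at E13.5 (log2 difference -0.46), where nearly all other members were higher. Its level in epithelial-like cells was 666, 480.1 and 498 CPM at the 3 stages, whereas Rps27 had 2935, 4933 and 4324 CPM in the same cells. In dermal-like cells Rps27l had 599, 637 and 569.6 CPM, and Rps27 had 2830, 3347 and 3195 CPM. Relative to the pool the difference of Rps27l was -0.98. The longest run shared by transcripts of Rps27l and Rps27 was 11 bases. In immune-like cells Rps27l had 675, 628 and 355 CPM, and it was the member counted as lower there at P0, from 82 UMIs.

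Rpl6l is annotated as a processed pseudogene (chr10:111125851-111126721, plus strand) and shares a run of 354 bases with Rpl6, so its reads cannot be told apart from those of Rpl6 with certainty. It had 20.1, 31.2 and 58.4 CPM at the 3 stages in all cells, and Rpl6 had 2517, 2882 and 3689 CPM. Rpl6l was the member past the fold at P0 in all cells, with a difference of 0.73, and the call is uncertain for this reason. The same holds for its upward calls at P0 in dermal-like (0.74), epithelial-like (0.63) and endothelial-like cells (0.64). In pericyte-like cells its difference was 0.51, with an interval of -0.08 to 1.11. Rpl36a, on the X chromosome, had 1592, 1903 and 1977 CPM, and its counterpart Rpl36al had 643, 750 and 611 CPM. Rows named as ribosomal protein pseudogenes held UMIs worth 0.368%, 0.484% and 0.594% of those of the members.

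Apart from Rpl39l, the composition of the ribosomal protein pool was close to constant between classes. The share of a member in the pool was compared, class by class, with its mean share in the other classes of the library, with Rpl39l included among the 79 members. Between 66 and 78 of 79 members lay within 0.25 on the log2 scale in each of the 24 combinations of class and stage. Without Rpl39l, the highest share of a member over the classes was a median of 1.18, 1.21 and 1.24 times the lowest at the 3 stages. This ratio was above 1.5 for 2, 3 and 7 of the 78 members.

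The members that did vary were chosen here after their values were seen. Immune-like cells had more Rps29, with 2.12% at E16.5 and 2.02% at P0 against 1.68% and 1.33% elsewhere. Endothelial-like cells at P0 had more Rps27 (1.61% against 1.24%) and Rps20 (1.16% against 0.891%), and melanocyte-like cells had less of both (0.983% and 0.746%). Rpl38 and Rpl41 held more of the pool in dermal-like cells, with 0.762% and 3.51% at P0, than in epithelial-like cells, with 0.495% and 2.64%. Rpl10, encoded on the X chromosome, held 1.36% of the epithelial pool at P0 against 1.83% elsewhere. Cartilage or tendon-like cells at E13.5 had less Rps27l (0.199% against 0.313%), Rps2 (1.38% against 1.90%) and Rpl12 (0.449% against 0.598%).

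**Figure D4:**
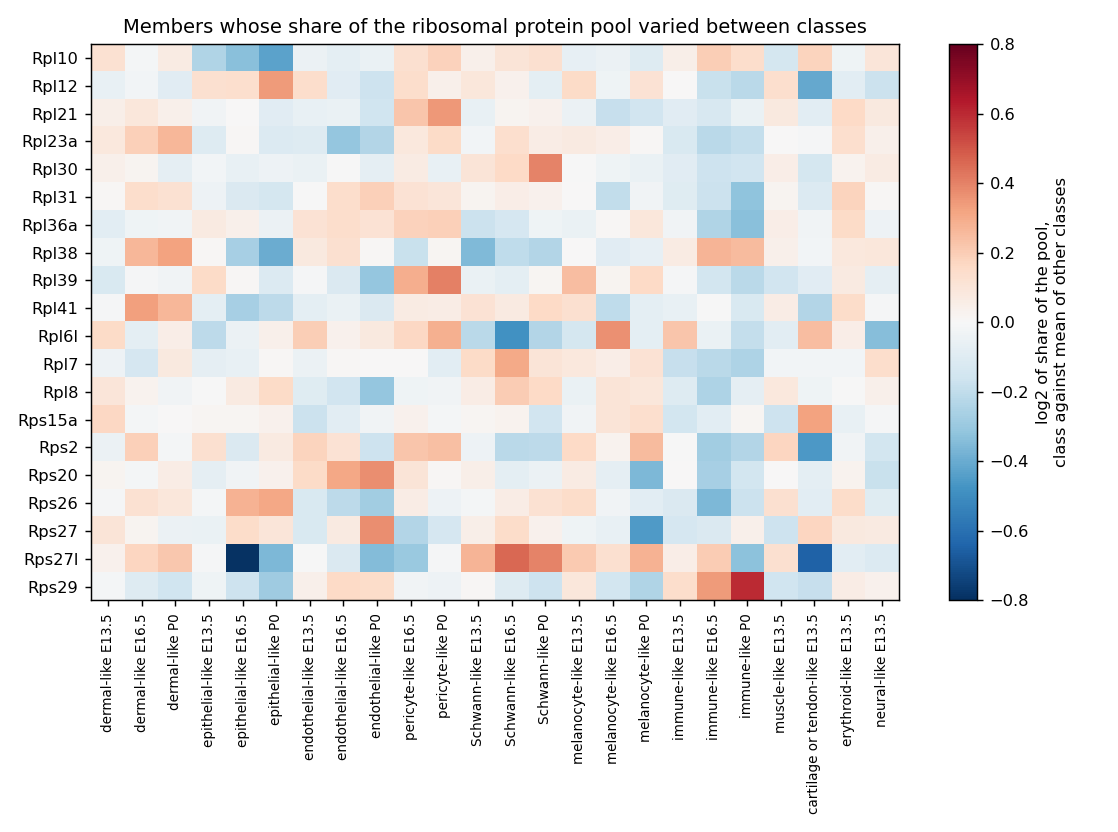
Rows are 20 members other than Rpl39l whose share of the pool differed by at least 0.3 on the log2 scale in some class, columns are the 24 combinations of class and stage, and colour is the log2 of the share of the pool in the class over the mean share in the other classes of that library. Most cells of the map are pale, and the strongest entries shown are Rps27l in epithelial-like cells at E16.5 (-0.79), Rps27l in cartilage or tendon-like cells at E13.5 (-0.65) and Rps29 in immune-like cells at P0 (0.60).

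Ribosomal proteins that the symbol rule misses had higher sums after E13.5, like the family. The 7 genes, among them Rps3a1, Fau, Gnb2l1 (Rack1), Rpl36al, Rpl22l1 and Rpl7l1, summed to 7996, 9380.5 and 9527 CPM in dermal-like cells, and to 9552, 13932 and 12952 CPM in epithelial-like cells. In epithelial-like cells 4 of 7 were higher by the fold at E16.5 (10.7% of all genes), Rps3a1 (0.67) among them, and Rpl7l1 (-0.41) and Rpl22l1 (0.10) were lowest.

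Genes for the assembly of ribosomes had lower sums at each later stage. The 31 biogenesis genes, among them nucleolar proteins and snoRNP subunits, summed in dermal-like cells to 3022, 2638 and 1551 CPM at the 3 stages. From E16.5 to P0 0 of 31 were higher by the fold (7.57% of all genes) and 17 were lower (18.6%), with a median of -0.60. Gnl3, nucleostemin, had 93.6 CPM (E16.5) and 28.0 CPM (P0), and Nop58, a core protein of box C/D snoRNPs, had 100.04 and 34.3 CPM. Among dermal-like cells scored as G1 the summed levels were 2687, 2394 and 1429 CPM, so the order was the same. In epithelial-like cells the sums were 4603, 3537 and 2722 CPM, with 8 of 30 lower by the fold (22.4% of all genes) and 0 higher (10.7%) at E16.5, a share near that of all genes. At P0 9 of 31 were lower (14.8%) and 0 higher (11.6%). At every stage the biogenesis sum was higher in epithelial-like than in dermal-like cells, and at P0 22 of 31 genes were higher by the fold against 20.0% of all genes, led by Wdr12 (1.66) and Tcof1 (1.41).

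The 16 genes listed as translation factors and other TOP mRNAs summed to 17569, 17806 and 20688 CPM in dermal-like cells and to 18603, 23840 and 26134 CPM in epithelial-like cells. At E16.5 against E13.5 in epithelial-like cells 4 of 16 were higher by the fold (10.7% of all genes) and 1 lower (22.4%), with Eef1a1, elongation factor 1 alpha, at 0.79 and Nap1l1 at -0.61. At P0 against E16.5 in dermal-like cells 4 were higher (7.57%) and 0 lower (18.6%), with Eif3h at 0.65 and Eef2 at 0.64. Mitochondrial ribosomal proteins, which build the separate ribosome of the organelle, summed over 77 genes to 7221, 6631 and 5873 CPM in dermal-like cells. In epithelial-like cells they summed to 7933, 6516 and 6732 CPM, and 16 of 76 were lower by the fold at E16.5 (22.4% of all genes) and 0 higher (10.7%). In dermal-like cells 1 of 76 was higher (7.32%) and 2 were lower (10.6%) at E16.5. Neither share of lower genes was above that of all genes tested.

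Regulators of ribosome synthesis were low and mixed. The 10 genes summed to 418, 461 and 468 CPM in dermal-like cells and to 401, 342 and 485 CPM in epithelial-like cells. Mycn, a MYC family transcription factor, had 44.4, 11.7 and 119.6 CPM in epithelial-like cells, and 15.8, 4.15 and 6.25 CPM in dermal-like cells. Eif4ebp1, which represses cap-dependent translation when mTOR is inactive, had 160.4, 221 and 269 CPM in dermal-like cells and 59.6, 57.7 and 136 CPM in epithelial-like cells. Larp1, which binds TOP mRNAs, had 32.3 CPM (E16.5) and 18.5 CPM (P0) in dermal-like cells, and 38.5 and 17.1 CPM in epithelial-like cells.

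**Figure D5:**
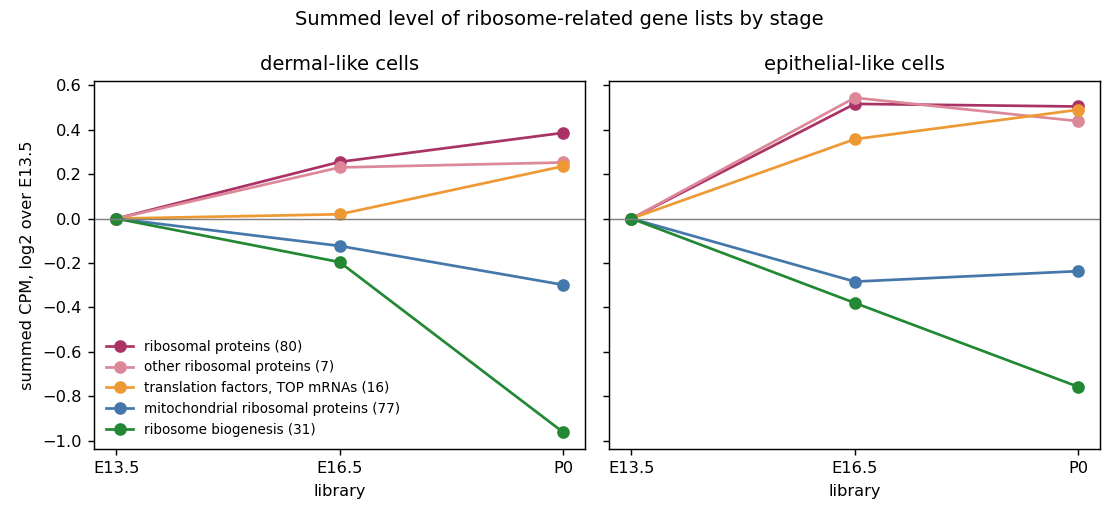
Points give the summed CPM of a gene list as log2 over its E13.5 value (vertical axis) at each library (horizontal axis), for dermal-like (left) and epithelial-like cells (right). Ribosomal protein genes lie at 0.39 and 0.51 at P0, and the biogenesis genes lie at -0.96 and -0.76.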

How the data were processed

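The authors aligned reads to mm10 and counted UMIs with Cell Ranger 2.2.0 (submitters' processing notes) and kept cells with at least 1750 genes. The deposited values are natural log values, ln(1 + UMIs scaled to a cell total of 10000). All 48197283 values above 0 were whole UMIs within 0.001, so UMIs were recovered. Each cell was thinned to 3500 UMIs, and 1 E16.5 cell below that was left out. Each library was clustered in scanpy 1.11.5 under Python 3.11.15 (2000 variable genes, 30 components, 15 neighbours, Leiden resolution 1) with members left out. Clusters were named where at least 3 markers had a log2 difference of 1 or more over the 25th percentile of clusters. Whole clusters led by markers of another class than the one matched best were left unnamed. These held 258, 84 and 25 cells of the E13.5 library, 528 of the E16.5 library and 216 of the P0 library. Sub-clusters were left unnamed where another class had more markers than their own among 10 leading genes (at least 2, or 5 for erythroid markers). A further 3 clusters were left unnamed by hand. The rules for these sub-clusters and 3 clusters were set after the clusters were seen. Phases were scored with lists of S and G2/M genes, and called doublets (84 at E16.5, 106 at P0, a caller that found 0 at E13.5 and was not used there) were kept. Differences are log2 of CPM with 10 added, over genes with at least 50 UMIs in the compared cells, and count as past the fold from 0.5. The confidence level of all intervals (exact binomial, Poisson) is 95%. The text names the 5 members with most UMIs, the 3 highest and 3 lowest members of comparisons, close copies with their counterparts, and the extremes of the gene lists. Members and lists were chosen with earlier results of these data known. The method was tested on simulated data. Values of some genes are not reported here.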

Additional observations from a re-analysis of the deposited data

Results flagged for a closer look

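The change of the ribosomal protein share from E16.5 to P0 had opposite directions in classes of the same libraries: it was 2.202 percentage points in dermal-like cells, -1.95 in pericyte-like cells and -1.15 in Schwann-like cells. Each kept its sign under every alternative run for it, with ranges of 0.875 to 3.57, -2.41 to -1.56 and -2.60 to -1.06 points. The dermal-like value was lowest among cells with at least 2500 genes and highest among cells with 5000 to 9000 UMIs, and the Schwann-like one was farthest from 0 without thinning. The difference between the classes was not tested, since each stage is 1 library.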

How the results depend on the processing

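With 1 library per stage no replicate could be left out, and no paired analysis was possible because the stages have no replicate numbers to pair. Counting error is small at these depths, so most alternatives moved the shares by more than it, but the differences between stages in all cells and between lineages kept their sign under every alternative run. Below, values are given for E16.5 minus E13.5 and then P0 minus E16.5 in all cells, and for epithelial minus dermal at E13.5, E16.5 and P0, in percentage points. Without thinning they were 5.36 and 3.36, and 3.56, 9.02 and 6.85. Among cells with 5000 to 9000 UMIs they were 3.897 and 3.21, and 1.68, 6.35 and 5.76. With mitochondrially encoded genes left out of the total they were 5.16 and 2.402, and 3.09, 9.43 and 6.57. With the ribosomal proteins outside the rule added, the first was 5.31 and the lineage differences were 2.94, 9.04 and 6.47. Among cells with at least 2500 genes they were 4.803 and 3.41, and 3.36, 8.93 and 7.12. Among G1 cells they were 5.24 and 2.02, and 6.95 for the lineages at E16.5. The lineage differences were 1.76, 7.93 and 5.81 at Leiden resolution 0.5, and 1.67, 8.34 and 6.22 at resolution 2. They were 1.93, 8.31 and 6.07 with the median of clusters as the naming reference, and 1.93, 8.37 and 6.05 with no cells left unnamed by hand or by sub-clusters, an alternative chosen after seeing the data. Whole clusters led by markers of another class stayed unnamed in it. With sub-clusters holding at least 2 erythroid markers among their leading genes left out too, also chosen after seeing the data, they were 2.71, 8.34 and 6.32. Changes of the share within classes reversed as follows. For epithelial-like cells P0 minus E16.5 was 0.160 at resolution 0.5, 0.152 at resolution 2, 0.0418 without thinning, 2.98 among cells with 5000 to 9000 UMIs, 1.01 in G1 cells and 0.122 with globin-led sub-clusters left out. For melanocyte-like cells it was 2.44 at both resolutions and 4.96 with the other naming reference and with no cells left unnamed by hand or by sub-clusters. For endothelial-like cells it was -0.532 at resolution 0.5, and for immune-like cells 2.71 without thinning, while their E16.5 minus E13.5 was -0.200 with at least 2500 genes. The cause of these changes was not tested. Members past the fold at E16.5 against E13.5 numbered 10 when centred on the median of all genes, 17 when scaled to UMIs of genes that are not members and 1 at a log2 difference of 1. At P0 against E16.5 they numbered 0 with at least 2000 UMIs, 2 when centred and 0 at a log2 difference of 1. For the lineages at E13.5 they numbered 1 with at least 2000 UMIs, at a log2 difference of 1 and at both other resolutions. They also numbered 1 with the other naming reference and with no cells left unnamed by hand or by sub-clusters. For the lineages at E16.5 they numbered 64 when scaled to other genes and 1 at a log2 difference of 1, and at P0 5 when centred, 30 when scaled to other genes and 1 at a log2 difference of 1. Other alternatives kept their counts within 1.5 times. Doublets were left out as an alternative at E16.5 and P0 but not at E13.5, where the caller marked 0 cells.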
